A study of Danio rerio with 10 samples.

Results

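The genes described here encode the 2 Interleukin-11 ligands of zebrafish and members of the gp130 receptor family: *il11ra*, *il11a*, *il11b*, *il6st*, *crlf1a*, *lifra*, *lifrb* and *cntfr*. They were taken by symbol from the gene annotation of both count tables, and all 8 were found, among 22202 genes listed for the fin and 23511 listed for the ventricle. The study asked what Il-11 signaling does during regeneration, and profiled tissue of *il11ra* mutants and of their wild-type siblings by RNA-seq. Adult zebrafish, 4 to 8 months old, received a cryoinjury of the heart or an amputation of the caudal fin, so that every library came from injured tissue and uninjured tissue is not part of these data. The 4 ventricle libraries were made at 96 hours post cryoinjury (hpci), 2 of wild-type ventricles and 2 of *il11ra* mutant ventricles, with 2 animals pooled in each. The 6 fin libraries were made at 24 hours post amputation (hpa), 3 of wild-type fins and 3 of *il11ra* mutant fins, with 1 animal in each. The paper profiled whole ventricles, and for gene expression in fins it took 2 bone segments on the proximal side of the cut. The mutation is the single allele *bns251*, made with CRISPR-Cas9 and a guide against exon 6 of *il11ra*, and as a germline allele it is not limited to a cell type or to the time of injury. Nothing in the labels marks the libraries of a genotype as separate clutches.

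The Interleukin-6 family signals through receptors assembled at the cell surface. A ligand first binds its own receptor, which for Interleukin-11 is Il11ra and for ciliary neurotrophic factor is Cntfr, and this complex then recruits gp130, the shared signaling chain encoded by *il6st*. Leukemia inhibitory factor and its relatives use a pair of signaling chains, gp130 and the LIF receptor, whose zebrafish genes are *lifra* and *lifrb*. Gp130 activates Janus kinases, which phosphorylate Stat3, and Stat3 in turn switches on *Socs3*, a brake on the same receptor. Interleukin-11 is known for its induction after injury in regenerating tissues and, in mammals, for a debated part in fibrosis.

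In GRCz11, 3 of the 8 genes lie on chromosome 10, all on the minus strand: *il6st* from 5788620 to 5821584, *il11ra* from 13305610 to 13396720 and *cntfr* from 13460130 to 13772861. The gap between *il11ra* and *cntfr* is 63.4 kb, whereas *il6st* lies 7484 kb away from *il11ra*. The ligand genes are unlinked, with *il11a* on chromosome 16 from 12611362 to 12617155 on the plus strand and *il11b* on chromosome 19 from 10429810 to 10432134 on the minus strand. The LIF receptor genes are on chromosome 5 (*lifra*, 8417184 to 8483537, minus strand) and chromosome 21 (*lifrb*, 21244046 to 21261636, plus strand). The gene *crlf1a* lies on chromosome 2 from 41876595 to 41920632 on the plus strand. The tables annotate all 8 as protein-coding.

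The study's primer table gives oligonucleotides for the mutated site and for the 2 ligand transcripts. They are shown for reference only, since no value given here was measured with them. The first pair amplifies the *bns251* site for genotyping, and the other pairs amplify the ligand cDNAs. All are written 5′ to 3′ in lower case.
il11ra bns251 genotyping, forward: acatcactgaaatcaacccgc
il11ra bns251 genotyping, reverse: aagagggttcattgacttacaga
il11a RT-qPCR, forward: ggacaaatatgaaattgctgggtg
il11a RT-qPCR, reverse: agcgtcagaaggagtttggt
il11b RT-qPCR, forward: tgaacgcaaatgagttgactg
il11b RT-qPCR, reverse: cccaattcgtcactattccgt

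The unit throughout is the normalized count, which is a read count divided by a size factor for its library. Size factors were set for fins and ventricles separately, so levels in the 2 tissues are given side by side and were not tested against each other. The fin libraries summed to between 3768621 and 3986121 normalized counts, and the ventricle libraries to between 10968602 and 13273996. Judged by the steps of the low values, a single read stood for 0.802 to 1.34 normalized counts in fins and for 0.836 to 1.03 in ventricles. A gene with 3 reads would therefore show 2.41 to 4.03 normalized counts in fins and 2.51 to 3.10 in ventricles, and values near these stand for a few reads. Genotypes were compared with limma on log2(normalized count + 1) over all genes with a mean of at least 10, which kept 7 of the 8 genes in fins (all but *lifra*) and 8 of 8 in ventricles. A gene was called at a Benjamini-Hochberg adjusted p under 0.05. Transcript lengths were not used here, so levels are compared between libraries and not between genes.

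In amputated fins at 24 hpa, 3 of the 7 tested genes were lower in *il11ra* mutants, namely the mutated receptor gene, the gene of the shared chain gp130 and *crlf1a*. Both ligand genes and *lifrb* did not pass the test, and *cntfr* was higher in every mutant fin without passing it. The 3 lower genes are 3 of 7, against 17.0% of all 16741 tested fin genes called lower and 19.6% called higher, so that 36.6% of fin genes were called in one direction or the other. Libraries of the 2 genotypes did not overlap for 4 of the 7 (the same 3 and *cntfr*), where 52.8% of all tested fin genes did not overlap, with 26.8% of tested genes lower. In cryoinjured ventricles at 96 hpci, 5 of the 8 genes had every mutant library below every wild-type library (*il11ra*, *il6st*, *crlf1a*, *lifra* and *lifrb*), where 17.1% of all 17411 tested genes lay lower without overlap. The same 5 had an unadjusted limma p under 0.05, against 3.66% of all tested ventricle genes lower, 3.07% higher and 6.74% in either direction. After adjustment, 0 of the 8 genes and 0 of all ventricle genes (0%) passed the threshold. The counts in both tissues include *il11ra*, the mutated gene that defines the groups. In fins it passed the filter on low values through wild type (mean 67.3, against 5.33 in mutants). The 8 genes were also chosen with earlier results of these data known, so the counts are not a test of the family.

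**Figure D1:**
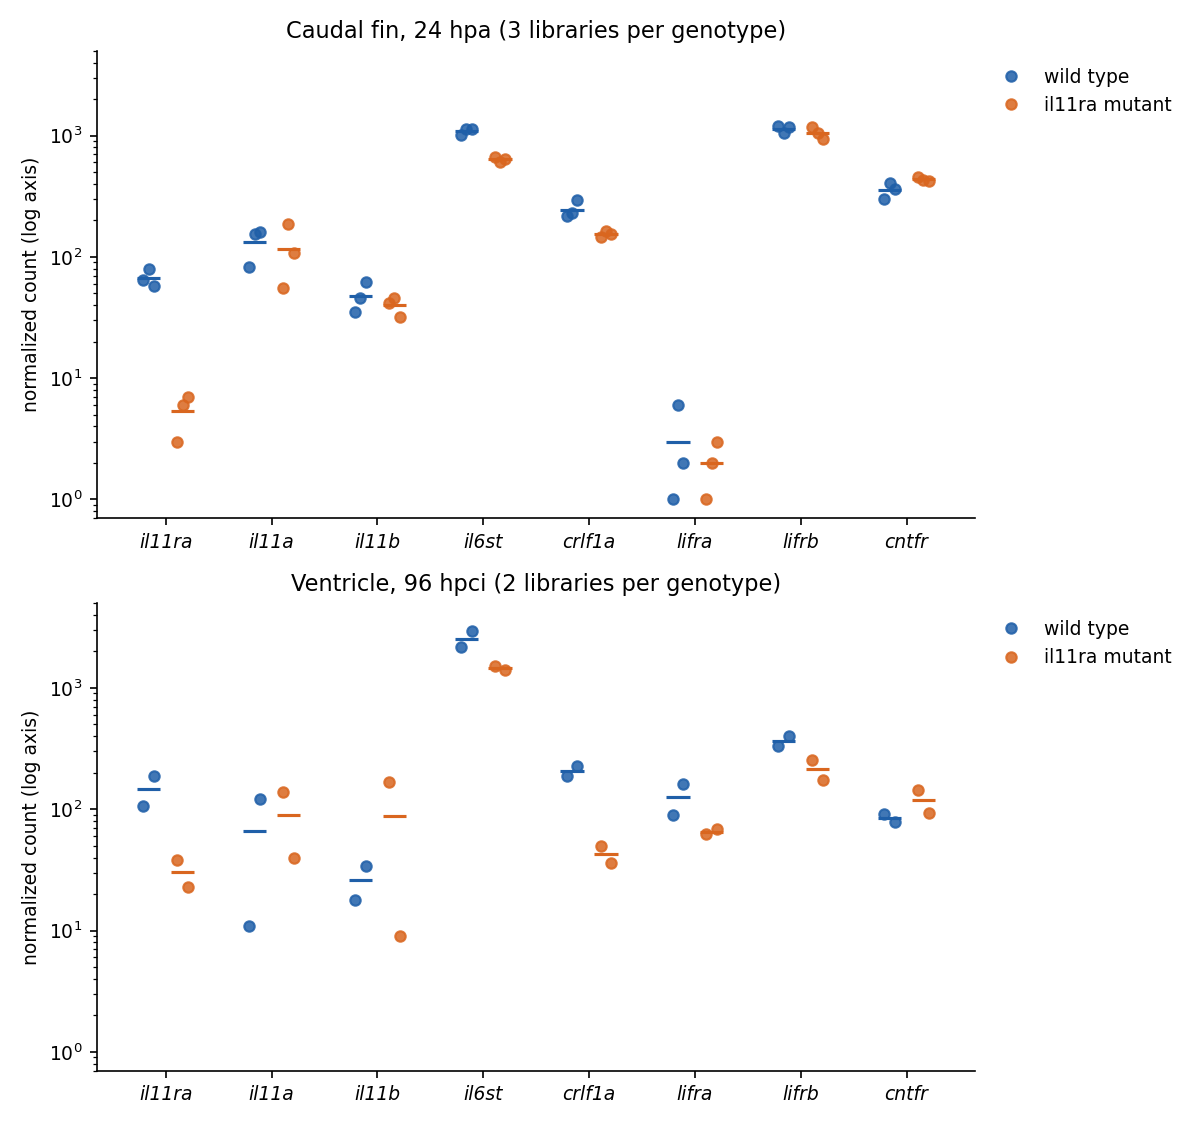
Normalized counts (log axis) of the 8 genes in each caudal fin library at 24 hpa and each ventricle library at 96 hpci, wild type in blue and *il11ra* mutant in orange, with a horizontal line at the mean of each genotype. In fins the mutant points of *il11ra*, *il6st* and *crlf1a* lie below all wild-type points, in ventricles those of *lifra* and *lifrb* do so too, and the ligand genes *il11a* and *il11b* overlap in both tissues.

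The mutated gene was read first. In fins, *il11ra* had 65, 80 and 57 normalized counts in wild type against 3, 6 and 7 in mutants. Mutant fins thus kept 7.92% of the wild-type mean (limma log2 fold change -3.48, standard error 0.35, adjusted p = 0.000644). In ventricles *il11ra* stood at 107 and 189 in wild type and at 38 and 23 in mutants, or 20.6% of the wild-type mean. The ventricle difference was -2.23 on the log2 scale (standard error 0.39, 95% interval -3.18 to -1.28), with a limma adjusted p of 0.306 and an unadjusted p of 0.00121. Genotypes did not overlap in either tissue, so no library went against its label in its targeted gene. The values count reads over the whole gene, so they do not show whether the remaining transcript carries the *bns251* change, and mutant fin replicate 1, with 3 normalized counts, lay under the 4.03 that 3 reads would give there.

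The gene of the shared signaling chain was lower in mutant fins, and in ventricles its mutant libraries lay below the wild-type ones by a similar factor. In fins, *il6st* had 1009, 1132 and 1134 normalized counts in wild type against 664, 604 and 640 in mutants. The lowest wild-type fin exceeded the highest mutant fin, and the log2 fold change was -0.78 (standard error 0.083, 95% interval -0.97 to -0.59, limma adjusted p = 0.000782). In ventricles, *il6st* had 2166 and 2920 in wild type against 1503 and 1409 in mutants. The genotypes again did not overlap, with a log2 fold change of -0.79 (standard error 0.21, 95% interval -1.31 to -0.26), and this passed no adjusted threshold (limma adjusted p = 0.576, unadjusted p = 0.0103). Of the 8 genes, *il6st* was the one whose mutant mean was closest between tissues in relative terms, at 58.3% of wild type in fins and 57.3% in ventricles. In bulk tissue, fewer cells that transcribe a gene and less transcript in each of them cannot be told apart, for *il6st* as for every other gene here.

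The ligand genes showed no genotype difference beyond the spread between libraries. *il11a*, which encodes one of the paralogous Interleukin-11 ligands, had 82, 155 and 159 normalized counts in wild-type fins and 55, 186 and 107 in mutant fins. The genotypes overlapped, and the log2 fold change was -0.29 with a 95% interval from -1.29 to 0.70 (standard error 0.43, limma adjusted p = 0.621). Its paralog *il11b* had 35, 46 and 62 in wild-type fins and 42, 46 and 32 in mutant fins, and these overlapped too. The log2 fold change of *il11b* in fins was -0.23, with a 95% interval from -0.85 to 0.40 (standard error 0.27, limma adjusted p = 0.537).

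In ventricles, libraries of the same genotype stood far apart for the ligand genes. Wild-type ventricle replicate 1 had 11 normalized counts of *il11a* and replicate 2 had 121, while the mutant libraries had 140 and 40. For *il11b* the wild-type libraries had 18 and 34, and the mutant libraries had 167 and 9, the highest and the lowest value of the 4. Because each library pooled 2 animals, the spread between single hearts was not observed. The log2 fold change was 0.99 for *il11a* (95% interval -1.76 to 3.74, limma adjusted p = 0.914) and 0.67 for *il11b* (95% interval -2.37 to 3.71, limma adjusted p = 0.941). Both intervals span a several-fold fall and a several-fold rise, so at this number of libraries a genotype difference of either ligand gene was not detectable.

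The balance between the ligand paralogs was read as the share of *il11a* in the sum of both, library by library. In fins, *il11a* made up 70.1%, 77.1% and 71.9% of the sum in wild type against 56.7%, 80.2% and 77.0% in mutants. In ventricles the share was 37.9% and 78.1% in wild type against 45.6% and 81.6% in mutants. The log2 ratio of *il11a* to *il11b* differed by -0.07 between genotypes in fins (two-sided exact permutation p = 0.9) and by 0.32 in ventricles (exact p = 0.67). With 2 paralog pairs compared in each tissue the adjusted values were 1.0 and 0.67, and the exact test cannot give less than 0.1 in fins or 0.33 in ventricles. Such a share depends on the lengths of both transcripts, so only its change between libraries is read.

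**Figure D2:**
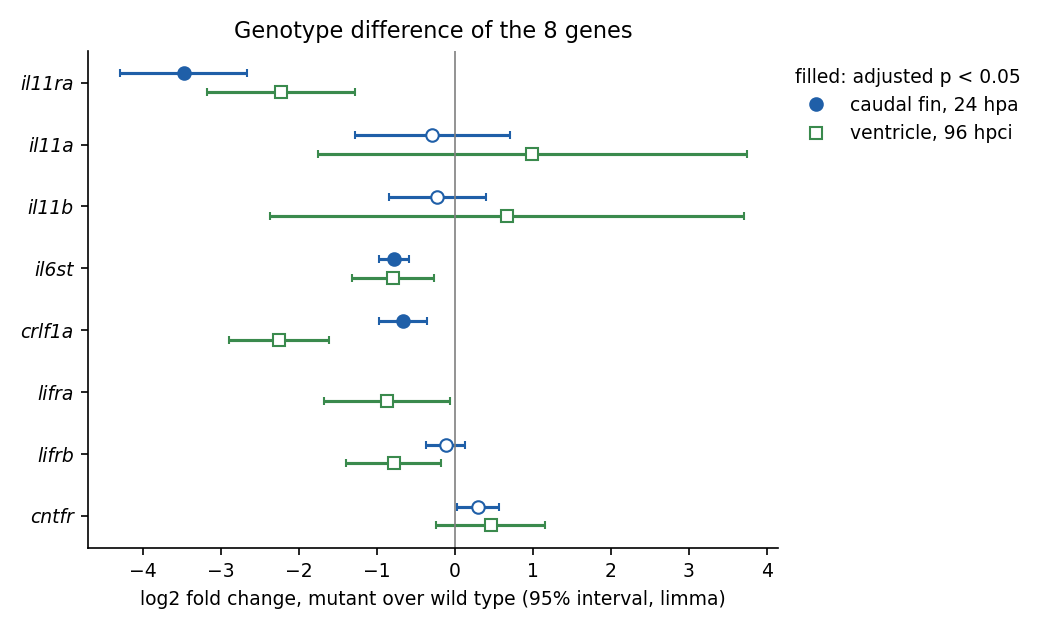
Log2 fold change of each gene, mutant over wild type, with 95% intervals from limma, for fins at 24 hpa (blue circles) and ventricles at 96 hpci (green squares); filled symbols have an adjusted p under 0.05. The fin intervals of *il11ra*, *il6st* and *crlf1a* lie below 0, the ventricle intervals of 5 genes do so without passing the adjusted threshold, and those of *il11a* and *il11b* cross 0 in both tissues.

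*crlf1a* was lower in mutant fins, and lay lower without passing the adjusted threshold in mutant ventricles. Wild-type fins had 217, 228 and 292 normalized counts and mutant fins 145, 162 and 153. The genotypes did not overlap, and the log2 fold change in fins was -0.67 (standard error 0.13, 95% interval -0.97 to -0.36, limma adjusted p = 0.0076). In ventricles *crlf1a* had 187 and 229 in wild type against 50 and 36 in mutants, which left 20.7% of the wild-type mean. The ventricle log2 fold change was -2.26 (standard error 0.26, 95% interval -2.90 to -1.62, unadjusted limma p of 0.000137, adjusted p = 0.158). Among the 8 genes this was the lowest p in ventricles, below that of the mutated gene itself. Whether the fold change differed between the tissues was not tested.

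Both LIF receptor genes were read in ventricles, whereas in fins only *lifrb* passed the filter on low values. In fins, *lifra* had 1, 6 and 2 normalized counts in wild type against 1, 2 and 3 in mutants, near the level of 3 reads, and it fell under the filter and was not tested with limma (exact permutation p = 0.9). Its paralog *lifrb* had 1204, 1043 and 1166 in wild-type fins and 1177, 1044 and 929 in mutant fins, which overlapped. The log2 fold change of *lifrb* in fins was -0.12 with a 95% interval from -0.37 to 0.13 (limma adjusted p = 0.402). In ventricles *lifra* had 89 and 162 in wild type against 62 and 69 in mutants, whereas *lifrb* had 331 and 401 in wild type against 256 and 174 in mutants. Both paralogs were thus lower in both mutant ventricle libraries. Neither difference passed the adjusted threshold, with a log2 fold change of -0.87 for *lifra* (95% interval -1.67 to -0.061, unadjusted p = 0.039, limma adjusted p = 0.709) and -0.78 for *lifrb* (95% interval -1.40 to -0.17, unadjusted p = 0.02, limma adjusted p = 0.631).

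Within libraries, *lifra* made up 0.083% to 0.572% of the sum of both LIF receptor genes in fins. In ventricles it made up 21.2% and 28.8% in wild type against 19.5% and 28.4% in mutants, so that the fin and ventricle ranges were far apart. Genotypes overlapped in this share in both tissues, and the log2 ratio of *lifra* to *lifrb* differed between them by -0.15 in fins (exact permutation p = 1.0) and by -0.08 in ventricles (exact p = 0.67). Since both paralogs are read in the same library, the size factor cancels in the share.

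**Figure D3:**
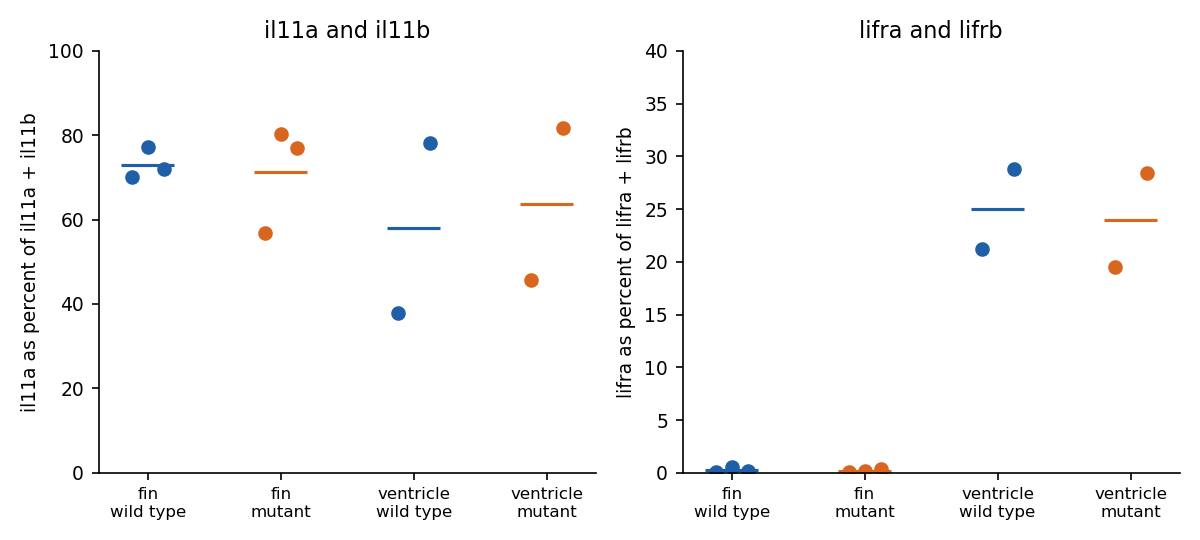
Share of *il11a* in the sum of *il11a* and *il11b* (left, percent) and of *lifra* in the sum of *lifra* and *lifrb* (right, percent) in each library, wild type in blue and mutant in orange, with a line at each mean. The *il11a* share spans 37.9% to 81.6% with both genotypes overlapping, and the *lifra* share is under 1% in every fin library and 19.5% to 28.8% in ventricles.

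*cntfr*, which encodes the receptor of ciliary neurotrophic factor, lay on the other side of 0. In fins it had 300, 406 and 365 normalized counts in wild type against 455, 431 and 421 in mutants. Every mutant fin was above every wild-type fin, as for 26.0% of all tested fin genes, and the log2 fold change was 0.30 (standard error 0.12, 95% interval 0.024 to 0.57, limma adjusted p = 0.0821). Among 6 refits of *cntfr* that each dropped 1 fin library, 1 passed the threshold. That refit lacked wild-type fin replicate 2, the highest of its group (log2 fold change 0.40, limma adjusted p = 0.0461). Across the 6, the log2 fold change went from 0.18 to 0.40 and the limma adjusted p from 0.0461 to 0.184. Of 8 alternative settings that kept all fin libraries, 0 passed, at limma adjusted p of 0.079 to 0.117. In ventricles *cntfr* had 91 and 78 in wild type against 145 and 93 in mutants, again without overlap, as for 18.2% of tested ventricle genes. The ventricle log2 fold change was 0.46 (95% interval -0.24 to 1.15, limma adjusted p = 0.831). Being the neighbor of *il11ra* on chromosome 10, *cntfr* was the nearest of the 8 genes to the mutated site, and its difference had the opposite sign in both tissues. Within 1 Mb of *il11ra*, 7 other genes (*cntfr* among them) were tested in fins, of which 1 was called higher and 1 lower. That is 28.6% called, beside 36.6% of all tested fin genes. In ventricles 8 other genes were tested there and 0 were called. Of these, 1 had an unadjusted limma p under 0.05, as did 6.74% of all tested ventricle genes.

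The median log2 fold change was -0.29 over the 7 genes tested in fins, where the median of all tested genes was -0.014. Over the 8 genes in ventricles it was -0.79, where the median of all tested genes was 0.01. Both medians of the family include *il11ra*, the mutated gene. The 8 genes summed to 2913 to 3237 normalized counts in wild-type fins and 2292 to 2542 in mutant fins, and to 3000 to 4134 in wild-type ventricles and 1853 to 2361 in mutant ventricles. Such sums follow the genes with the highest counts. The mean of *il6st* alone was 1092 in wild-type and 636 in mutant fins, and 2543 in wild-type and 1456 in mutant ventricles. *lifrb*, another large part of the fin sum, had means of 1138 in wild type and 1050 in mutants and was not called there. The sums therefore do not show a fall of the family as a whole.

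The genes whose pattern across libraries was nearest to that of a member were found from the root mean square difference of log2 values after centring each gene. In ventricles, over 4 libraries, the nearest of all tested genes to *il11ra* was *crlf1a*, another of the 8, with a root mean square difference of 0.204, followed by *si:ch211-106h4.12* (0.21) and *per1a* (0.246), a circadian clock gene. The nearest to *crlf1a* were again *si:ch211-106h4.12* (0.122) and *per1a* (0.158), then *CABZ01118738.1* (0.173). In fins, over 6 libraries, those nearest to *il6st* were *zswim8* (0.05), *farp1* (0.055) and *si:dkey-40c11.2* (0.063), and the one nearest to *il11ra* was *fermt2* (0.229). The values of *fermt2*, which encodes a kindlin, were 19, 31 and 19 in wild-type fins and 1, 2 and 2 in mutant fins. Each mutant value lay under what 3 reads would give there (2.78 to 4.03), so *fermt2* passed the filter through wild type. Mutant fins had only 3, 6 and 7 of *il11ra*, so on the mutant side this likeness rests on few reads. For *cntfr* in fins the nearest were *prdm9* (0.042), *epc2* (0.05) and *gigyf1b* (0.052). So few libraries cannot separate the many genes with a similar pattern.

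The other ligands of the family were read from a list of 7 genes. In fins 5 were tested, and 1 of them, *crlf1b*, was lower in mutants and 0 were higher. Of all tested fin genes, 17.0% were called lower and 19.6% higher. *crlf1b*, the paralog of *crlf1a*, had 57, 83 and 77 normalized counts in wild-type fins and 27, 45 and 35 in mutant fins (log2 fold change -1.01, standard error 0.25, limma adjusted p = 0.0176). Both *crlf1a* and *crlf1b* were thus lower in mutant fins, while in ventricles *crlf1b* had 4 to 6 in all libraries and was not tested. *clcf1*, a ligand gene of the family, had 485, 484 and 603 in wild-type fins and 510, 487 and 461 in mutant fins, which overlapped (log2 fold change -0.10, limma adjusted p = 0.477). In ventricles *clcf1* had 17 and 22 in wild type against 28 and 6 in mutants. *osm*, the oncostatin M gene, had 51, 18 and 22 in wild-type fins and 3, 17 and 14 in mutant fins, without overlap, and did not pass the test (log2 fold change -1.47, limma adjusted p = 0.106). It was at 1 or 0 in ventricles.

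The remaining ligand genes were low or did not differ past the threshold. *cntf*, the ciliary neurotrophic factor gene, had 33, 36 and 38 normalized counts in wild-type fins and 26, 19 and 32 in mutant fins (log2 fold change -0.49, limma adjusted p = 0.184), and 136 to 151 in all ventricle libraries. *m17*, the zebrafish gene related to LIF, had 14 to 35 in all fin libraries, where the genotypes overlapped. In ventricles *m17* had 9 and 6 in wild type against 26 and 13 in mutants, with a log2 fold change of 1.22 (95% interval -0.15 to 2.58, limma adjusted p = 0.762). There it passed the filter on low values through the mutants (mean 19.5, against 7.5 in wild type). *il6* had 11, 14 and 4 in wild-type fins and 0, 8 and 6 in mutant fins, where 4.03 is what 3 reads would give in the library at 0, and 5 to 11 in ventricles. *ebi3*, which encodes a receptor-like subunit of dimeric cytokines, had 0 to 9 in fins and 0 to 4 in ventricles. Of these 7 genes, 3 were tested in ventricles, where 0 passed the limma threshold and 0 had an unadjusted p under 0.05, with a median log2 fold change of -0.03.

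Of 8 further receptor genes of the same type, 7 were tested in fins, with 3 higher and 2 lower in mutants, where 36.6% of all tested fin genes were called in either direction. *il6r*, which encodes the receptor for Interleukin-6, had 82, 105 and 74 normalized counts in wild-type fins and 277, 391 and 256 in mutant fins. It thus moved opposite to *il11ra* in fins (log2 fold change 1.80, standard error 0.19, limma adjusted p = 0.000795), whereas in ventricles it had 164 and 228 in wild type against 241 and 161 in mutants (log2 fold change 0.03). *il12rb2*, a receptor chain for Interleukin-12 in mammals, had 37, 43 and 27 in wild-type fins and 86, 119 and 94 in mutant fins (log2 fold change 1.47, limma adjusted p = 0.00305). *crlf3*, a receptor-like gene, had 411, 391 and 442 in wild-type fins and 539, 494 and 504 in mutant fins (log2 fold change 0.31, limma adjusted p = 0.0251). The 2 lower genes were *lepr*, the leptin receptor gene, and *csf3r*, the receptor gene for granulocyte colony-stimulating factor.

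*lepr* had 386, 377 and 361 normalized counts in wild-type fins and 213, 189 and 243 in mutant fins, a log2 fold change of -0.81 (standard error 0.11, limma adjusted p = 0.0018). *csf3r* had 69, 67 and 39 in wild-type fins and 28, 32 and 34 in mutant fins, a log2 fold change of -0.84 (standard error 0.27, limma adjusted p = 0.0425). The 2 that did not pass the test were *il12rb2l* (189 to 233 in all fin libraries) and *il23r* (20, 17 and 13 in wild type, 22, 50 and 15 in mutants). *osmr*, the oncostatin M receptor gene 9.1 kb from *lifra*, had 2 to 12 in fins and 1 to 3 in ventricles and was not tested. In ventricles 6 of the 8 receptor genes were tested, 0 passed the limma threshold and 0 had an unadjusted p under 0.05, with a median log2 fold change of 0.06 beside 0.01 for all genes.

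Downstream of the receptors, 15 genes of Jaks, Stats and their brakes were tested in fins. Of these, 9 were higher and 2 lower in mutants, where 19.6% of all tested fin genes were called higher and 17.0% lower, and the list's median log2 fold change was 0.48. *stat3* itself did not differ in fins past the threshold, with 492, 539 and 554 normalized counts in wild type against 473, 611 and 512 in mutants (log2 fold change 0.00345, 95% interval -0.25 to 0.26). *jak1*, the kinase gene most tied to gp130, had 1135, 1146 and 1100 in wild-type fins and 916, 931 and 930 in mutant fins (log2 fold change -0.28, limma adjusted p = 0.0159). The other lower gene was *socs3b*, with 549, 633 and 648 in wild type against 303, 532 and 425 in mutants (log2 fold change -0.57, limma adjusted p = 0.0452). Its paralog *socs3a* was higher in the same mutant fins, with 756, 655 and 789 in wild type against 1194, 957 and 1114 in mutants (log2 fold change 0.57, limma adjusted p = 0.00677). The 2 paralogs of the receptor's own brake thus moved in opposite directions in fins.

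The remaining 8 genes called higher in mutant fins were *jak2a* and *tyk2*, which encode Janus kinases, *stat1a* and *stat1b*, the Stat genes of interferon signaling, *socs1a*, *socs1b* and *cish*, which encode further brakes, and *ptpn6*, a phosphatase gene of blood cells. Their log2 fold changes ranged from 0.42 for *jak2a* to 2.11 for *socs1b*, which had 48, 28 and 22 normalized counts in wild type against 151, 142 and 121 in mutants. *stat1a* had 718, 608 and 703 in wild-type fins and 1243, 940 and 982 in mutant fins (log2 fold change 0.63, limma adjusted p = 0.00667). *cish* had 151, 189 and 193 in wild-type fins and 354, 363 and 349 in mutant fins (2.01-fold higher by the fitted values, limma adjusted p = 0.000982).

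In ventricles 14 of the 15 were tested and 0 passed the adjusted threshold, while 4 had an unadjusted limma p under 0.05, all lower in mutants. Of all tested ventricle genes, 3.66% were lower with such a p. *stat3* had 963 and 1440 normalized counts in wild-type ventricles and 683 and 739 in mutant ventricles (log2 fold change -0.73, limma adjusted p = 0.651). *socs3a* had 6000 and 8417 in wild type against 2631 and 2804 in mutants (log2 fold change -1.39, limma adjusted p = 0.295). *socs3b* had 650 and 1410 in wild type against 301 and 317 in mutants (log2 fold change -1.63, limma adjusted p = 0.439). In ventricles both *socs3* paralogs therefore lay lower in mutants, together with *il11ra*, *il6st* and *crlf1a*. The other of the 4 was *stat1a*, with 1767 and 1773 in wild type against 1277 and 1251 in mutants (log2 fold change -0.49, limma adjusted p = 0.694).

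**Figure D4:**
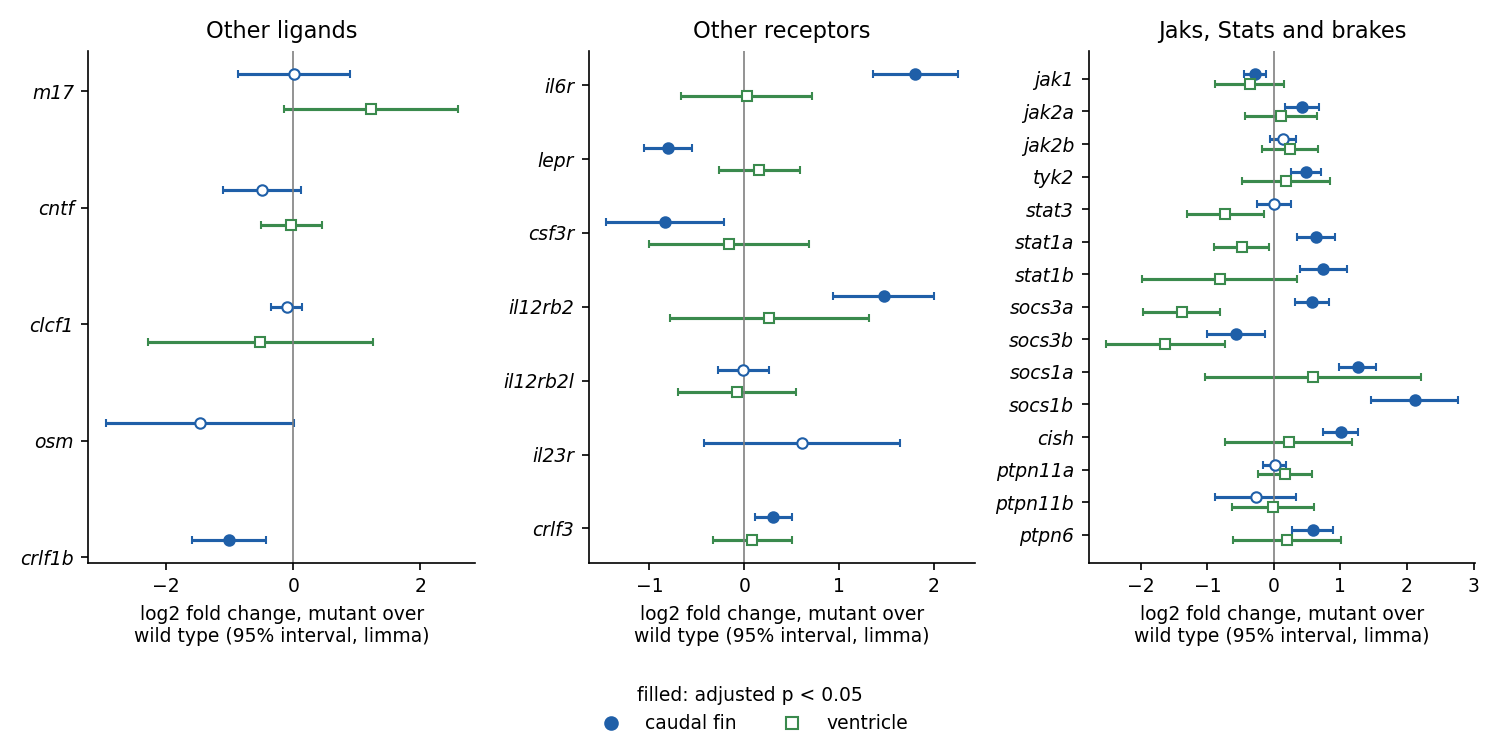
Log2 fold change, mutant over wild type, with 95% intervals from limma, of the other ligand genes, the other receptor genes and the genes of Jaks, Stats and their brakes that were tested in fins (blue circles) or ventricles (green squares); filled symbols have an adjusted p under 0.05. In fins *il6r* and *il12rb2* lie above 0 and *lepr*, *csf3r* and *crlf1b* below it, and *socs3a* lies above 0 in fins and below it in ventricles.

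The same lists of cell type markers were read in both tissues, so some lists name cell types of only 1 of the tissues. The sum of a list therefore need not stand for the cell type it is named after. Of all tested fin genes, 19.6% were called higher and 17.0% lower, and the counts below stand beside these shares. In fins, 7 of 7 tested leukocyte markers were called higher in mutants, and their summed level was 2501 to 2985 normalized counts in wild type and 4941 to 5795 in mutants. Of 7 tested osteoblast markers, 5 were called lower, and their sum was 2301 to 2671 in wild type and 1399 to 1624 in mutants. Of 7 tested endothelial markers 3 were called higher, and the sum was 1116 to 1215 in wild type and 1308 to 1707 in mutants. Of 7 epidermal markers 1 was called higher, with overlapping sums. Of 6 blastema and fin mesenchyme markers tested 1 was called higher and 1 lower, also with overlapping sums. Of 6 epicardial and fibroblast markers 2 were called lower, and the sum was 7152 to 8510 in wild type and 6406 to 6500 in mutants. Of 5 Schwann cell and neural markers 2 were called higher, and of 6 erythrocyte markers 0 were called. The fin table lists 2 of 7 cardiomyocyte markers, with a sum of 65 to 82 in wild type and 1 to 7 in mutants, the latter at the level of a few reads. Of these, 1 was tested, *tnnt2a*, and it was called lower (log2 fold change -4.22). With so few counts in mutants, *tnnt2a* passed the filter on low values through wild type. The part of these cell types in the fin levels of *il6st*, *crlf1a*, *il6r* and the other genes called was not tested.

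In ventricles 0 markers of any list passed the limma threshold, and 7 had an unadjusted p under 0.05. Of all tested ventricle genes, 6.74% had such a p, made up of 3.07% of all tested genes higher and 3.66% lower in mutants. The 7 markers were 3 of 7 tested epicardial and fibroblast markers and 1 of 6 erythrocyte markers, higher in mutants. The others were 1 of 8 endothelial, 1 of 4 epidermal and 1 of 2 blastema and fin mesenchyme markers, lower. The summed epicardial and fibroblast markers were 27643 to 32937 normalized counts in wild type and 42591 to 48142 in mutants. Summed endothelial markers were 14002 to 15730 in wild type and 12398 to 13909 in mutants, without overlap and lower in mutants. Also lower without overlap were the summed blastema and fin mesenchyme markers (3911 to 5610 in wild type, 1685 to 3139 in mutants) and epidermal markers (3233 to 3747 in wild type, 1964 to 2750 in mutants). Of these lists, 2 blastema and fin mesenchyme genes and 4 epidermal genes were tested in ventricles. The first list holds *aldh1a2*, which the paper places in endocardial and epicardial cells of the injured heart. Summed erythrocyte markers were higher without overlap, at 72532 to 76692 in wild type and 85737 to 98231 in mutants. Cardiomyocyte markers summed to 722502 to 831310 in wild type and 429572 to 771937 in mutants, and leukocyte markers to 8751 to 10084 and 9925 to 14512, and these overlapped, as did the osteoblast and the Schwann cell and neural sums. All 7 cardiomyocyte markers were tested there. No marker of any list was at 0 in every library of a table that lists it. The part of these cell types in the ventricle levels of the 8 genes was not tested.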

How the data were processed

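The authors prepared stranded mRNA libraries and sequenced them as single-end reads of 75 bases. The submitters' processing notes name FastQC, Trimmomatic 0.39, STAR 2.7.3a, featureCounts 1.6.5 from Subread, DESeq2 1.26 and the build GRCz11, and the strand setting of the counting is not given in the sources used here. The deposited values are a score, here called normalized count, that the authors made by dividing read counts by a size factor per library within each tissue and rounding to whole numbers. Because rounding hides the reads, count models were not used.

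In R 4.3.3, limma 3.58.1 with a mean-variance trend was fitted on log2 of the normalized count plus 1, mutant against wild type per tissue, for genes with a mean of at least 10, and p-values were adjusted over all genes tested. It was checked on simulated data with the same spread for all genes and 200 genes changed by 2 on the log2 scale. Of these, 100% were recovered in both tissues, with 11 false calls in fins and 1 in ventricles. Measured genes differ in spread and 0 passed in ventricles, so the simulation does not give the power of these data. Paralog ratios were compared with a two-sided exact permutation test over libraries. Python 3.11.15 with pandas 2.3.3 and matplotlib 3.10.9 was used for tables and figures. P-values measure only the spread between these libraries. Primers came from the study's supplementary table; genome, promoter and protein sequences were not used here. The listed values stood for an estimated 2965864 to 4699029 reads in fin libraries and 12862399 to 14292521 in ventricle libraries. The largest value of a gene was 3136 to 6719 in fin libraries against 362628 to 600938 in ventricle libraries, so the fin table may leave out genes with high values, which was not tested, and its total may not be the depth of those libraries.

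The members, the pathway lists and the marker lists were chosen with earlier results of these data known. All members were named with every library's value. From the pathway lists, every ligand and receptor found was named, and of the Jaks, Stats and brakes those past the threshold in fins. Up to 3 nearest genes were named for 4 of the members. Genes of the ventricle comparison named beyond this, such as *stat3*, were chosen after their values were seen. Alternatives were other pseudocounts and minimum means, other scalings, robust moderation, the replicate number as a block and each library left out.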

Additional observations from a re-analysis of the deposited data

Results flagged for a closer look

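In 3 genes of the pathway lists, every mutant library lay on one side of the wild-type libraries in fins and on the other side in ventricles. Of all tested genes, 26.0% lay higher and 26.8% lower without overlap in fins, and 18.2% higher and 17.1% lower in ventricles. The share of all genes on opposite sides in the 2 tissues was not counted, so these 3 are listed without a claim that they are unusual. *lepr* had a log2 fold change of -0.81 in fins and 0.16 in ventricles. *stat1a* had 0.63 in fins and -0.49 in ventricles, and *socs3a* had 0.57 in fins and -1.39 in ventricles. Whether these fold changes differed between tissues was not tested, and the tissues also differ in injury, time and animals per library. None of the 8 members did so. A search for single libraries far from their group was not possible with 2 or 3 libraries per genotype.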

How the results depend on the processing

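Of 192 refits of single members, 188 kept their direction and their side of the threshold. The exceptions were *il11a* in fins without mutant replicate 1 (log2 fold change 0.157), *il11a* in ventricles without wild-type replicate 1 (-0.68), *il11b* in ventricles without mutant replicate 1 (-1.37) and *cntfr* in fins without wild-type replicate 2 (0.40). With all ventricle libraries kept, 0 of all genes passed under any setting. For ventricle refits, staying on that side of the threshold therefore says nothing about stability, and only the direction is read. With each library left out, the log2 fold change ranged from -0.71 to 0.157 for *il11a* in fins, from -0.68 to 2.66 for *il11a* in ventricles and from -1.37 to 2.704 for *il11b* in ventricles. The cause was not tested. Members past the threshold in fins were 2 to 3 with all libraries kept, the 2 coming from a minimum mean of 50 that *il11ra* does not reach, and 3 to 4 with each library left out. In ventricles 0 passed under any alternative run. The difference in the *il11a* to *il11b* log2 ratio ranged from -0.38 to 0.42 in fins and from -0.91 to 1.55 in ventricles as libraries were left out, and was -0.001 in ventricles with a pseudocount of 10. For *lifra* to *lifrb* the ranges were -0.59 to 0.42 and -0.44 to 0.27, and a pseudocount of 10 gave 0.019 in fins. Genes past the threshold in fins numbered 4924 to 6457 with all libraries kept and 4180 to 5317 with each left out.

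Fin libraries that share a replicate number had deviations correlated at 0.033, 0.09 and -0.084. With so few libraries, these values cannot show whether such libraries share more than a number. With the replicate number as a block, 3 members and 5703 genes passed in fins, and 0 members and 0 genes in ventricles, where 939 genes had an unadjusted limma p under 0.05. Same-numbered ventricle libraries were correlated at -0.193. With 2 libraries per genotype, the deviations of a genotype mirror each other, so the crossed pairing was bound to correlate at 0.193. It was chosen after seeing the data, and with it 0 members and 0 genes passed. Under it 1834 genes had an unadjusted limma p under 0.05, against 1173 without a block. That count therefore does not show which ventricle libraries belong together. Values of few normalized counts, as of *lifra* in fins, are limited by depth.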
